A study of Mus musculus with 6 samples.

Results

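The genes described here are 10 nucleic acid sensors and the proteins that relay their signal, taken from a table of naive CD4 T cells with and without Trim28. They were taken from a list of names: Ddx58 (now Rigi), Ifih1, Mavs, Mb21d1 (now Cgas), Tmem173 (now Sting1), Tbk1, Irf3, Irf7, Zbp1 and Adar. Of these 10, the table analysed here gave a row for 9, among 16931 genes named in all. Sting1 was not analysed here. Where a gene had several transcript rows, the row with the highest total stood for it.

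The cells came from Trim28 KO mice (libraries KO1, KO2 and KO3) and the others from wild-type littermates (WT1, WT2 and WT3), all C57BL/6, with 3 libraries per genotype. Naive CD4 T cells, helper T cells that have not met antigen, were enriched on magnetic beads, sorted by flow cytometry and lysed without stimulation being recorded for these libraries. Trim28 encodes a corepressor that keeps retroelements and other genes silent. The labels state neither the allele, the age of the mice and the cells that lost the gene, nor whether each library was 1 mouse. P-values therefore measure only the spread between libraries, which may be technical.

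Cells detect foreign or misplaced nucleic acid with dedicated receptors. Ddx58 and Ifih1 bind double-stranded RNA in the cytosol and signal through Mavs on mitochondria, while Cgas binds cytosolic DNA and makes a cyclic dinucleotide that activates Sting1. Both routes meet at the kinase Tbk1, which phosphorylates Irf3 and Irf7 so that they switch on type I interferon genes. Zbp1 binds left-handed (Z-form) nucleic acid and can trigger cell death, and Adar edits double-stranded RNA, which hides a cell's own RNA from Ifih1. Retroelement transcripts are a known source of ligands for these receptors. The comparison sets the RNA levels of the sensing machinery in Trim28 KO cells against those in wild-type cells.

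Depth ran from 22005759 reads (KO2) to 44372701 reads (KO1). Trim28 itself averaged 871 ± 330 normalized reads in KO libraries and 8715 ± 622 in WT libraries (SD, n = 3 each), which is 9.99% of the WT mean. The CD4 T cell markers, such as Cd3d and Cd4, were abundant in every library: Cd4 was between 27990 and 32564 in KO libraries and between 31880 and 34970 in WT libraries. The 8 naive T cell markers summed to 118160, 106812 and 93803 in KO1, KO2 and KO3. Their sums were 117370, 131496 and 119845 in WT1, WT2 and WT3. In limma 0 of these 8 were called, with a median log2 fold change of -0.17. An unadjusted p under 0.05 was reached by 4 of them, all lower in KO, and by 12.7% of all tested rows. Transcripts of other cell types differed between libraries, and KO3 and WT1 stood apart for several marker lists. In KO3 the summed B cell markers were at 1749 normalized reads, against 189 to 208 in the other KO libraries and 180 to 354 in WT libraries. Its summed NK cell markers were at 1139 (348 to 357 in the other KO libraries, 229 to 262 in WT) and its CD8 markers at 4416 (708 to 755, and 561 to 1065 in WT). Neutrophil markers were highest in WT1: they summed to 177 in KO3 and 8.57 to 8.74 in the other KO libraries, and to 491, 4.40 and 157 in WT1, WT2 and WT3. Monocyte markers summed to 464 in KO3 and 61.2 to 74.3 in the other KO libraries, and to 218, 36.3 and 160 in WT1, WT2 and WT3. Erythroid markers summed to 109 in KO3 and 3.57 to 16.0 in the other KO libraries, and to 93.4 in WT1 and 13.1 to 13.2 in the other WT libraries. The 8 markers of plasmacytoid dendritic cells, which hold much Irf7, summed to 533 to 1225 in KO libraries and 49.5 to 128 in WT libraries, and Ly6d, which other cells also express, made up most of the KO sums at 488 to 874, against 5.50 to 31.7 in WT libraries (log2 fold change 5.11, limma adjusted p 0.00175). Its part in the differences below was not tested. The defining marker Siglech was at 0.714, 0 and 54.2 in KO1, KO2 and KO3, and between 1.10 and 6.97 in WT libraries. Y-linked transcripts were found in KO2 (12677) and WT1 (13625) and were at most 2.39 in the other libraries. In bulk RNA, fewer cells of a type and less RNA per cell cannot be told apart.

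No sensor, adaptor, kinase or transcription factor of the 9 changed at the threshold used, an adjusted p under 0.05. Reads divided by a size factor per library are called normalized reads here. The test was limma, applied to their log2 values after adding 1, with Benjamini-Hochberg adjustment over 13022 tested rows, of which 1.51% were called (1.19% higher and 0.315% lower in KO). None of the 9 genes was called by limma (0 of 9), and 0 reached an unadjusted p under 0.05, which 12.7% of all tested rows did. With voom weights on recovered reads the counts were again 0 and 0. Adjusted p ran from 0.454 for Cgas to 0.883 for Irf7. The fitted difference was positive for 3 genes and negative for 6, with a median log2 fold change of -0.10, beside 0.0019 over all tested rows. A difference of at most 0.5 on the log2 scale was found for 8 of the 9 genes and for 86.3% of all tested rows. The values of the genotypes did not overlap for 1 of the 9, Mavs, and for 18.8% of all tested rows. Leaving out KO3, and likewise leaving out WT1, also gave 0 calls among the 9.

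**Figure D1:**
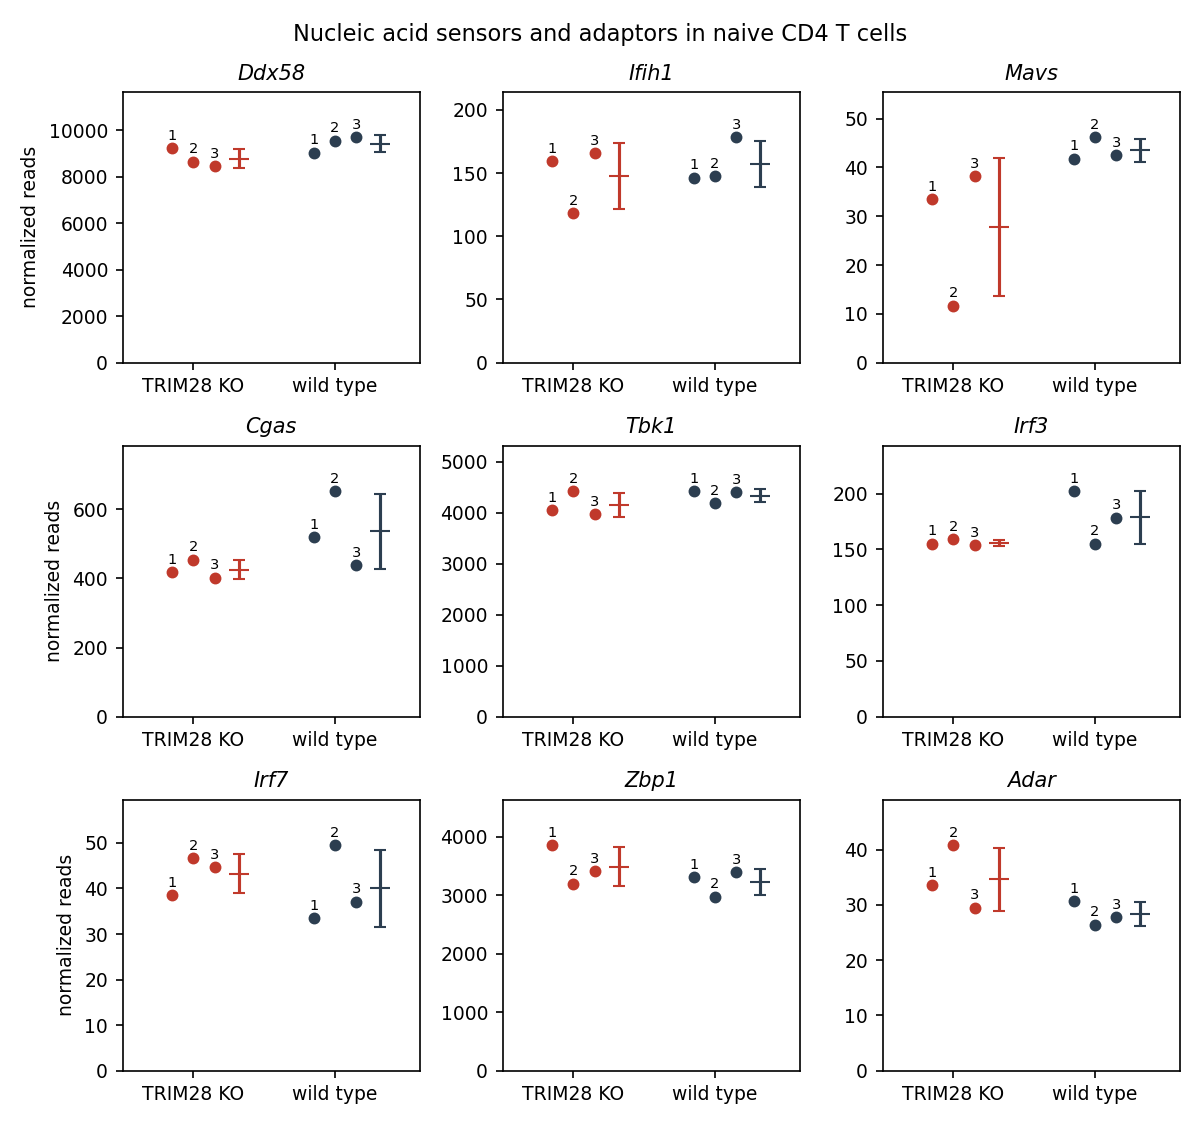
Normalized reads of each of the 9 genes in each library (points, numbered by replicate), with the mean and SD of each genotype beside them, TRIM28 KO left of wild type; every vertical axis starts at 0. The genotypes overlap in every panel but that of Mavs, where KO2 lies far below the other 5 libraries.

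Ddx58, the receptor for short double-stranded RNA with a free triphosphate end, was the most abundant of the 9 (row NM_172689, chromosome 4, 40203777 to 40239825 of mm10). It had 9236, 8640 and 8445 normalized reads in KO1, KO2 and KO3, and 9032, 9543 and 9701 in WT1, WT2 and WT3. KO1 lay above WT1, so the genotypes overlapped, although the other KO libraries were below all WT libraries. The log2 fold change of KO over WT was -0.10 (SE 0.081, 95% interval -0.29 to 0.081, limma adjusted p 0.642). Ddx58 is known as an interferon-induced gene as well as a sensor of the interferon route.

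Ifih1, the receptor for long double-stranded RNA, had a far lower count (NM_027835, chromosome 2, 62595618 to 62646255). It was at 159, 118 and 166 in KO1, KO2 and KO3, and at 146, 147 and 178 in the WT libraries. The values interleaved, with KO2 lowest and WT3 highest. KO over WT, the log2 fold change was -0.10 (SE 0.19, 95% interval -0.52 to 0.32, limma adjusted p 0.864), and it was 0.051 without KO2.

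Both RNA sensor genes carry the core of an interferon-stimulated response element, the motif through which interferon-activated factors bind, near their start. The motif searched was GAAA, any 2 bases and GAAA again, on both strands, over 300-base windows from 250 bases before to 50 bases after each gene start in RefSeq's GRCm38.p6 annotation. Of 32851 such windows, 3.44% held it. The stretches below are shown because these are the only windows among those of the 8 genes with an entry that held it; they read along the strand of the gene, with the motif in capitals. In Ddx58 the motif lies on the opposite strand, at bases 3 to 12 counted from 1 at the gene start (window chr4:40239804-40239833, minus strand). In Ifih1 it lies on the gene's strand at bases 33 to 42 (chr2:62646206-62646233, minus strand).
Ddx58: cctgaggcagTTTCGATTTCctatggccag
Ifih1: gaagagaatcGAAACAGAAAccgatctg
No match was found in the windows of Mavs, Cgas, Tbk1, Irf3, Irf7 and Adar, which says only that these letters are not there; Zbp1 had no entry. Across the table, 363 tested genes had the motif in a window. Of these, 3 rose and 0 fell in limma (Gstt1, Tnfrsf1b and Tenm4, named after their values were seen), which is 0.826% against 1.51% of all rows, and their median log2 fold change was -0.047. A match is a description of letters and not a shown binding site.

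Mavs, the mitochondrial adaptor of both RNA sensors, had the widest spread (NM_144888, chromosome 2, 131234063 to 131248025). It was at 33.6, 11.7 and 38.3 in KO1, KO2 and KO3, and at 41.8, 46.2 and 42.5 in WT1, WT2 and WT3. All KO values lay below all WT values, as they did for 9.58% of all tested rows. These values rest on few reads: 47, 8 and 48 in the KO libraries and 30, 42 and 55 in the WT libraries, and the exact Poisson interval of the 8 reads in KO2 runs from 5.03 to 23.0 normalized reads, for counting error only. Fitted over the libraries, the log2 fold change was -0.79 (SE 0.44, 95% interval -1.78 to 0.21, limma adjusted p 0.510). Without KO2 it was -0.27 and without KO3 it was -1.09, and it was called in neither case. An exact two-sided permutation test over the libraries gave p = 0.1 for Mavs, the smallest that 3 against 3 allow, and from 0.2 to 0.8 for the other 8 genes. A second Mavs row, NM_001206382, had only 2 to 5 reads in KO libraries and 3 to 8 in WT libraries and was not tested.

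Cgas, the cytosolic DNA sensor, had the smallest p of the 9 (NM_173386, chromosome 9, 78430518 to 78443237). It was at 418, 455 and 402 in KO1, KO2 and KO3, and at 519, 653 and 439 in WT1, WT2 and WT3. The KO libraries were close together, and WT3 fell within their range while WT2 stood highest. Means were 425 ± 27.1 in KO and 537 ± 108 in WT (SD, n = 3 each). This gave a log2 fold change of -0.32 (SE 0.16, 95% interval -0.67 to 0.035, limma adjusted p 0.454), and -0.17 without WT2. The exons of Cgas share 201 bases with a gene model on the other strand, where reads cannot be told apart if counting ignored strand. Its partner Sting1 was not analysed here, so the DNA route is described only by its sensor and kinase.

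Tbk1, the kinase that both routes share, had the narrowest range of the 9 over the libraries, 0.16 on the log2 scale (NM_019786, chromosome 10, 121546455 to 121586794). It was at 4053, 4417 and 3964 in the KO libraries and at 4420, 4185 and 4397 in the WT libraries. KO2 lay among the WT values and the other KO libraries below them. The fitted log2 fold change was -0.066 (SE 0.083, 95% interval -0.25 to 0.12, limma adjusted p 0.790). It was -0.034 without KO3 and -0.11 without KO2.

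Irf3, the factor that Tbk1 activates in most cells without prior interferon, was represented by a non-coding accession of the gene (NR_045611, chromosome 7, 44997648 to 45002848). The row had 155, 159 and 154 normalized reads in KO1, KO2 and KO3, and 202, 155 and 178 in WT1, WT2 and WT3. WT2 lay among the KO values and the other WT libraries above them. For this row the log2 fold change was -0.19 (SE 0.15, 95% interval -0.54 to 0.17, limma adjusted p 0.665). It was -0.094 without WT1 and -0.28 without WT2. The coding accession of Irf3 was not analysed here, so this row is not a measure of the whole gene.

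Irf7, the interferon-induced relative that amplifies the response, was low (NM_016850, chromosome 7, 141263183 to 141266499). It was at 38.6, 46.6 and 44.6 in KO1, KO2 and KO3, and at 33.5, 49.5 and 37.1 in WT1, WT2 and WT3, from 24 to 56 reads a library. The highest and the lowest value were both in WT libraries. Irf7 had a log2 fold change of 0.12 (SE 0.26, 95% interval -0.48 to 0.73, limma adjusted p 0.883). It was 0.0091 without WT1 and 0.28 without WT2.

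Zbp1, the sensor of Z-form nucleic acid, was second to Ddx58 per length (NM_021394, chromosome 2, 173206612 to 173218959). It was at 3853, 3194 and 3405 in KO1, KO2 and KO3, and at 3302, 2973 and 3389 in WT1, WT2 and WT3. KO1 was highest and the rest interleaved, and the log2 fold change was 0.11 (SE 0.10, 95% interval -0.12 to 0.34, limma adjusted p 0.696). Without KO1 it was 0.036, without WT2 0.054 and without KO2 0.17. A second Zbp1 transcript row, NM_001139519, was at 299, 307 and 403 in KO libraries and at 427, 347 and 376 in WT libraries (log2 fold change -0.19, SE 0.15, limma adjusted p 0.648). That row took 7.20%, 8.78% and 10.6% of the gene's reads in KO1, KO2 and KO3, and 11.4%, 10.4% and 9.99% in WT1, WT2 and WT3. KO3 overlapped the WT shares, and the difference was within the spread between libraries (exact two-sided permutation p = 0.3).

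Adar, the editor of double-stranded RNA, was the lowest of the 9 per length (NM_001038587, chromosome 3, 89714469 to 89753455). It was at 33.6, 40.8 and 29.5 in KO1, KO2 and KO3, and at 30.7, 26.4 and 27.8 in WT1, WT2 and WT3, from 22 to 47 reads a library. KO1 and KO2 were above all WT libraries and KO3 was not. Adar had a log2 fold change of 0.27 (SE 0.28, 95% interval -0.37 to 0.91, limma adjusted p 0.735), and 0.15 without KO2. The exons of Adar share 1365 bases with those of Chrnb2 on the other strand, and since it is not stated whether counting used strand, reads there cannot be told apart. The Adar window that starts at the most downstream of its 3 listed starts held the core of a gamma-activated site, TTCNNNGAA, another motif of interferon-responsive genes. Of all windows 8.30% held that motif, which reads the same on both strands and can share bases with the first motif. It is shown as the only such match among the 8 genes, at bases 23 to 31 (chr3:89730730-89730758, plus strand), with the motif in capitals.
Adar: gggaagccttTTCAAGGAAacgaaagtga

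The precision of these null results differed between genes. For 8 of the 9, the 95% interval lay within a 2-fold change in either direction, and for 5 (Ddx58, Ifih1, Tbk1, Irf3 and Zbp1) within 1.5-fold. Mavs was the exception at 2-fold. These intervals are for the rows tested and not for whole genes, and that of Irf3 is for its non-coding row. The smallest difference called anywhere in the table was 0.48 on the log2 scale.

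**Figure D2:**
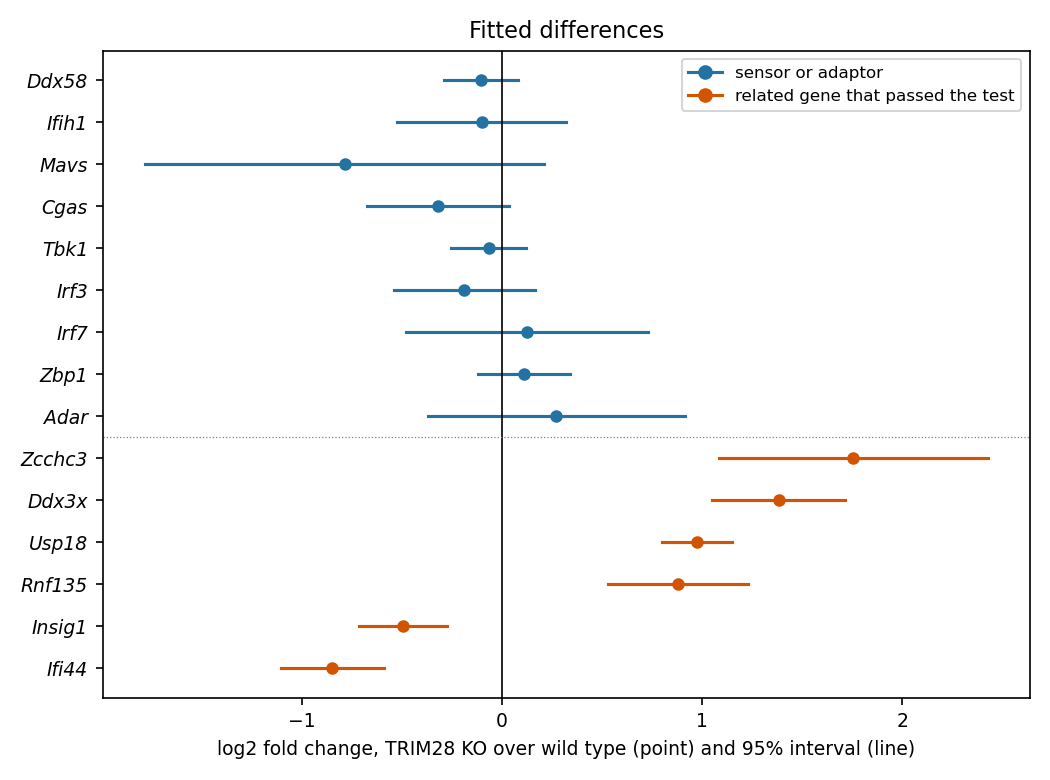
Fitted log2 fold change of TRIM28 KO over wild type (points) with its 95% interval from limma (lines) for the 9 sensors and adaptors, above, and for the 6 related genes that passed the test, below. All 9 intervals above cross 0, and that of Mavs is the widest, from -1.78 to 0.21.

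The levels of the 9 rows spanned a wide range within each genotype. Per kilobase of transcript, Ddx58 averaged 2265 ± 106 normalized reads in KO and 2433 ± 90.3 in WT libraries (SD, n = 3 each). Zbp1 followed at 1752 ± 169 in KO and 1620 ± 110 in WT, and Tbk1 at 1371 ± 79.4 in KO and 1433 ± 42.9 in WT. These 3 were in the same order in all 6 libraries, with no overlap of values. Cgas came next, at 105 ± 6.69 in KO and 133 ± 26.7 in WT, then Irf3 at 76.7 ± 1.30 in KO and 87.9 ± 11.6 in WT, and those neighbours overlapped between libraries. Ifih1 was at 27.0 ± 4.73 in KO and 28.8 ± 3.33 in WT, overlapping Irf7 at 22.6 ± 2.20 in KO and 20.9 ± 4.40 in WT. Mavs, at 9.10 ± 4.64 in KO and 14.2 ± 0.774 in WT, was above Adar, at 5.86 ± 0.970 in KO and 4.79 ± 0.368 in WT, in 5 of 6 libraries, KO2 being the exception.

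**Figure D3:**
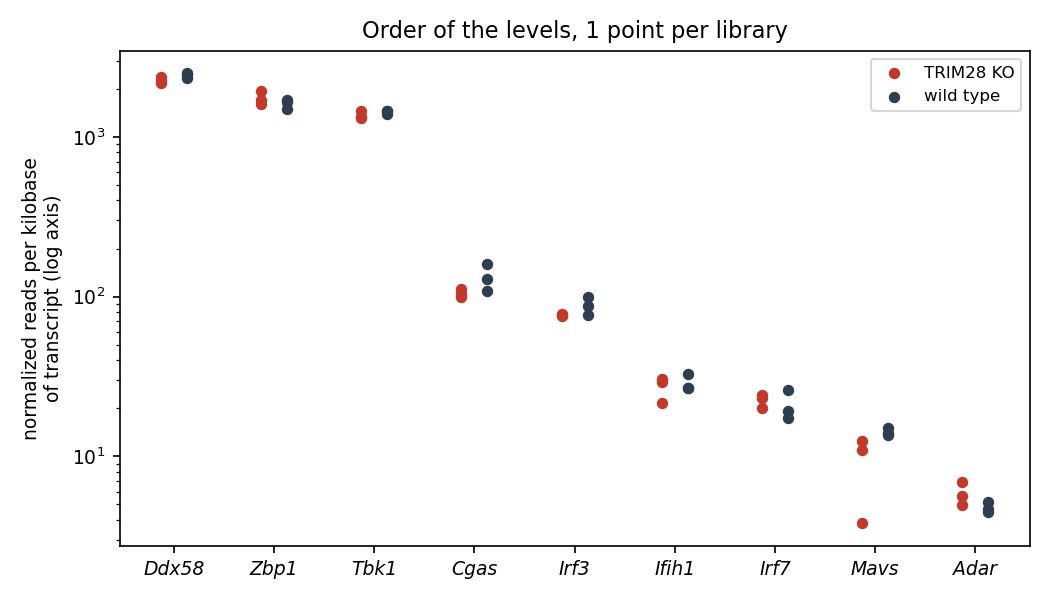
Normalized reads per kilobase of transcript, on a log axis, for the 9 genes from highest to lowest, with 1 point per library and TRIM28 KO left of wild type. Ddx58, Zbp1 and Tbk1 lie at 1311 or above in every library, and the other 6 lie at 161 or below.

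These levels are levels of rows and not of whole genes. RefSeq's GRCm38.p6 annotation lists 21 curated accessions for the 9 genes, of which 11 have a row here. Ddx58 and Tbk1, both among the 3 highest, have a single accession each, and Zbp1, the other of the 3, has 2 accessions and 2 rows. Adar has 4 accessions and 1 row, Mavs has 4 and 2 rows, and Irf7 has 3 and 1 row. Over all genes in the table, rows covered 58.5% of the accessions of genes with 2 accessions and 26.4% for genes with 4 or more. With the rows of a gene summed, the median gene averaged 131 normalized reads a library for genes with 1 accession. That median was 105 for genes with 2 accessions, 99.2 with 3 and 109 with 4 or more. How the authors assigned reads shared by transcripts of 1 gene is not stated, and its part in the low values of Adar, Mavs and Irf7 was not tested.

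Mavs and Cgas varied most over the 6 libraries, with ranges of 1.90 and 0.70 on the log2 scale. The profiles most like that of Mavs, by the root mean square difference of log2 values centred over the 6 libraries, were those of Rell2 (0.18), Ms4a4d (0.21), Snx9 (0.22) and Pld2 (0.23). For Cgas they were Fasl (0.075), Mfsd14b (0.084), Tspan13 (0.091) and Rpl6 (0.091). They were picked among 9172 genes on 6 values each, and none of these 8 passed the limma test.

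The proteins that act around the sensors were read from 9 lists of related genes, with 162 tested genes beside the 9. Of those, 4 rose and 2 fell in limma, which is 3.70%, against 1.51% of all tested rows, and their median log2 fold change was -0.040. The lists were chosen with earlier results of these data known, so no conclusion is drawn from the higher share. The rises were Ddx3x, Zcchc3, Rnf135 and Usp18, and the falls were Insig1 and Ifi44. Without KO3, 13 of the 162 were called, where the calls over all rows were 562 instead of 196. Without KO1 and without KO2, 3 of the 162 were called each time, with 138 and 114 calls over all rows.

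The list of cofactors and regulators of the RNA sensors had 19 tested genes, of which 3 rose, 0 fell and 16 did not pass, with a median log2 fold change of 0.047. Ddx3x, an RNA helicase reported in human cells to act with Mavs and Tbk1, was at 43034, 39615 and 34187 in KO1, KO2 and KO3, and at 12293, 15010 and 17752 in WT1, WT2 and WT3. Every KO library lay far above every WT library. Ddx3x had a log2 fold change of 1.38 (SE 0.15, 95% interval 1.05 to 1.72, limma adjusted p 0.00167), and it was called in all 18 alternatives. Ddx3x lies on the X chromosome and has a close copy on the Y chromosome, Ddx3y, which was at 5422 in KO2, at 5801 in WT1 and at 0 in the other libraries. How reads common to both were assigned is not stated, and the Ddx3x log2 fold change was 1.39 with the Y-linked sum as a covariate.

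Zcchc3, a zinc finger protein reported to help both Cgas and Ddx58 bind their ligands, was at 122, 154 and 143 in KO1, KO2 and KO3, and at 51.6, 50.6 and 25.5 in the WT libraries. The genotypes did not overlap and the log2 fold change was 1.75 (SE 0.29, limma adjusted p 0.0232). It was not called without KO1, without KO2 or without the mean-variance trend. Rnf135, the ubiquitin ligase (Riplet) that modifies Ddx58 so that it can signal, was at 297, 289 and 380 in KO libraries and at 160, 180 and 180 in WT libraries. Its log2 fold change was 0.88 (SE 0.15, limma adjusted p 0.0284), and its call was lost in 7 of the 18 alternatives, among them leaving out any library other than KO3. The remaining cofactors included Dhx58, a relative of Ddx58 without signalling domains, at 763 ± 232 in KO and 821 ± 62.2 in WT libraries, and the ligase Trim25, at 3678 ± 939 in KO and 3212 ± 550 in WT, both without passing.

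Usp18 was the call shared by the lists of DNA sensors with Sting1 regulators and of interferon-stimulated genes. It encodes a protease that removes Isg15 from proteins and that also restrains signalling from the interferon receptor. It was at 4997, 4987 and 4760 in KO1, KO2 and KO3, and at 2495, 2525 and 2469 in WT1, WT2 and WT3, a narrow spread in both genotypes. Usp18 had a log2 fold change of 0.98 (SE 0.077, 95% interval 0.80 to 1.15, limma adjusted p 0.000369), and it was called in all 18 alternatives. Its exons share 124 bases with a gene model on the other strand.

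Of 31 tested genes in the list of DNA sensors and Sting1 regulators, Usp18 rose, Insig1 fell and 29 did not pass, with a median of 0.0040. Insig1, a sterol sensor of the endoplasmic reticulum that is also reported in human cells to act on Sting1, averaged 1735 ± 153 in KO and 2440 ± 93.2 in WT libraries (SD, n = 3 each). Its log2 fold change was -0.49 (SE 0.096, limma adjusted p 0.0472). It lost its call in 10 of the 18 alternatives, among them leaving out any library other than KO3, library total scaling and voom weights. The DNA sensor Aim2 was at 1821 ± 71.3 in KO and 1883 ± 236 in WT libraries without passing.

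Interferon-stimulated genes are the usual readout of these sensors, and Ifih1 is among the 36 tested. Usp18 rose, Ifi44 fell and 34 did not pass, with a median log2 fold change of -0.13. An unadjusted p under 0.05 was reached by 7 of the 36, and by 12.7% of all tested rows. Ifi44, an interferon-induced protein, was at 248, 235 and 242 in KO libraries and at 431, 425 and 450 in WT libraries (log2 fold change -0.85, SE 0.11, limma adjusted p 0.00649), and was called in all 18 alternatives. Usp18 and Ifi44 differed in opposite directions. Isg15, the ubiquitin-like protein that Usp18 removes, had 376 ± 75.4 in KO and 235 ± 25.1 in WT libraries (log2 fold change 0.66, limma adjusted p 0.130). Of the 7 genes at an unadjusted p under 0.05, 2 (Usp18 and Isg15) were higher and 5 were lower in KO. Without KO3, 1 gene of the list was called higher and 3 were called lower.

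The other 6 lists held no call in limma, and voom called none of their genes either. In the list of adaptor signalling to Tbk1 and IKK, 21 genes were tested, 0 at an unadjusted p under 0.05, and Irf9, a subunit of the factor that interferon activates, had the smallest p, with 158 ± 16.2 in KO and 198 ± 10.6 in WT libraries (limma adjusted p 0.405). Traf3, which links adaptors to Tbk1, was at 267 ± 35.5 in KO and 216 ± 28.2 in WT libraries. Of 18 nucleases and modifiers that limit self nucleic acid, 2 had an unadjusted p under 0.05, which 12.7% of all tested rows did. Rnaseh2c, a subunit of the enzyme that removes RNA from DNA hybrids, was at 1100 ± 79.6 in KO and 1376 ± 81.2 in WT libraries. Skiv2l, a helicase that works with the RNA exosome, was at 4103 ± 437 in KO and 5016 ± 453 in WT.

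Among 12 endosomal Toll-like receptor genes, 0 had an unadjusted p under 0.05. The receptors for RNA and DNA were low, with Tlr3 at 21.5 ± 7.26 in KO and 29.2 ± 4.88 in WT libraries, Tlr7 at 21.9 ± 1.37 in KO and 20.9 ± 4.17 in WT, and Tlr9 at 20.3 ± 12.5 in KO and 8.11 ± 6.46 in WT. Their adaptor Myd88 was at 1605 ± 213 in KO and 1265 ± 369 in WT libraries, and Irak2, a kinase below Myd88, was at 39.5 ± 6.88 in KO and 55.5 ± 10.5 in WT libraries. Of 13 effectors that bind double-stranded RNA, 3 had an unadjusted p under 0.05, which 12.7% of all tested rows did. Oas2, which makes the activator of a latent ribonuclease, was at 1243, 804 and 1152 in KO1, KO2 and KO3, and at 1454, 1903 and 1935 in WT1, WT2 and WT3. The genotypes did not overlap, with a log2 fold change of -0.74 (SE 0.18) and a limma adjusted p of 0.114, and it was called without KO3 and in the fit that held the Y-linked sum. Oas1a was at 399 ± 64.0 in KO and 594 ± 151 in WT libraries. Eif2ak2, the kinase that halts translation on double-stranded RNA, was at 2047 ± 192 in KO and 2034 ± 132 in WT libraries.

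Of 8 tested genes of the death route below Zbp1, 0 had an unadjusted p under 0.05, with Casp8 at 592 ± 65.3 in KO and 715 ± 66.0 in WT libraries and Ripk1 at 4491 ± 120 in KO and 4935 ± 186 in WT. The type I interferon transcripts Ifna2 and Ifna5 had at most 1 read in any library, and Ifnb1, Ifna1 and Ifna4 were not analysed here. Of the 6 tested genes of the interferon receptor and its signalling, Ifnar2 was at 1915, 1999 and 2001 in KO libraries and at 1521, 1523 and 1523 in WT libraries. The genotypes lay apart, at a log2 fold change of 0.37 (SE 0.081), without passing (limma adjusted p 0.0744).

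**Figure D4:**
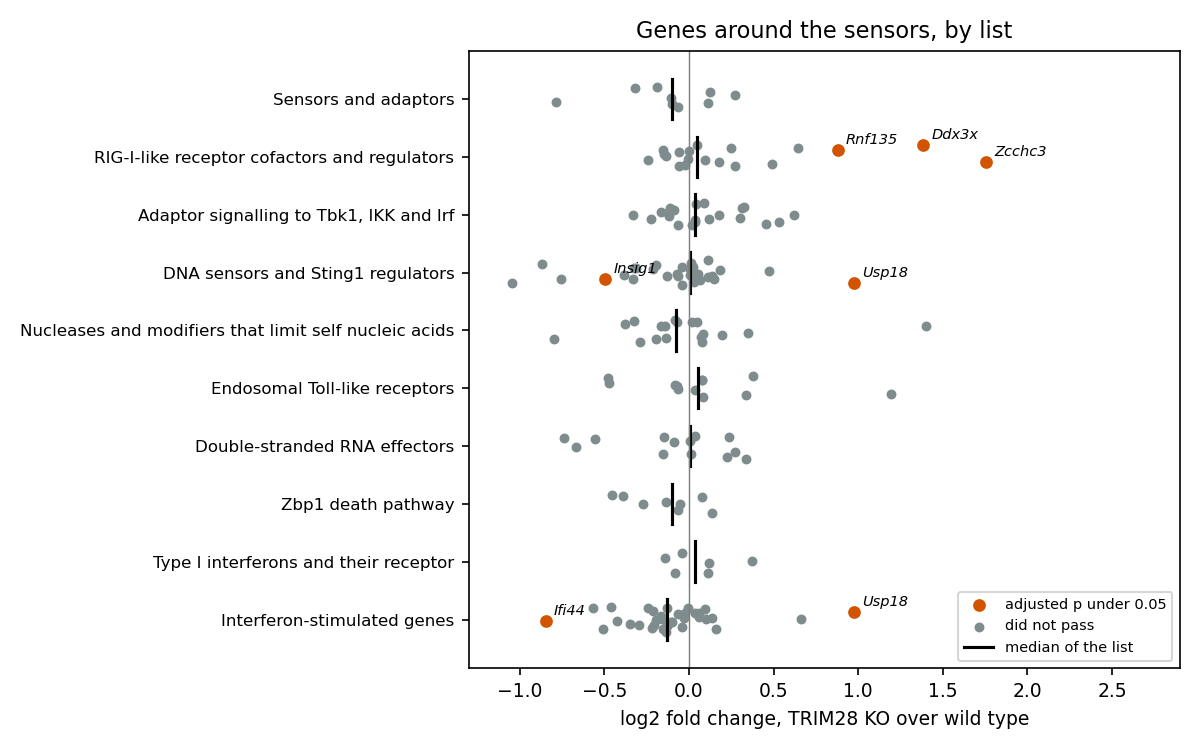
Log2 fold change of TRIM28 KO over wild type for each tested gene (points) of the 9 sensors and adaptors and of the 9 related lists, with the list's median as a black bar; genes with an adjusted p under 0.05 are orange and named. List medians lie between -0.13 and 0.056, and Usp18 appears in 2 lists.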

How the data were processed

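RNA was read as paired ends on a HiSeq2500, per the labels' protocols. STAR, HTSeq, DESeq2 and mm10 are named in the submitters' processing notes, with no versions or roles. The authors deposited 19048 transcript rows in log10 units. Turned back as 10 to the power of the value minus 1, 100% of values were whole multiples of 1 step per library (tolerance 0.01 of a read), which makes a deposited value log10(1 + reads / size factor). RefSeq's GRCm38.p6 table named 18811 rows, GENCODE M21 a further 104, and 133 had no symbol. The test was limma 3.58.1 (R 4.3.3) with the empirical Bayes trend on log2(normalized reads + 1) for rows with a mean of at least 10, with no covariate. It was also run on simulated counts with the same spread setting for every gene and no differences in cell make-up between libraries. That run cannot show how the test performs on these libraries. Adding 1 before the log makes fold changes of low genes smaller by construction. Since the deposited values are normalized, no count model was run, and the recovered reads served a fit with voom weights. Transcript lengths are GENCODE's. Genes named are all 9 members in the table and, per related list, called genes or the 2 with the smallest p, of which 1 is not reported here; those given beyond these (Dhx58, Trim25, Aim2, Isg15, Tlr3, Tlr7, Tlr9, Eif2ak2, Ifna2, Ifna5) were chosen for their role after values were seen. Members and lists were chosen with earlier results of these data known. Other settings were 2 pseudocounts, 2 filters, 3 scalings, voom, the variance trend, a Y-linked covariate, a replicate block, summed rows and each library left out.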

Additional observations from a re-analysis of the deposited data

How the results depend on the processing

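None of the 9 sensor and adaptor genes was called in any of the 18 alternatives, whose smallest adjusted p was 0.182 (Mavs without KO3). Of 159 recomputed log2 fold changes of these genes, 158 kept their direction; the exception was Ifih1, which ran from -0.19 to 0.051 when 1 library was left out, positive without KO2. Adar, Irf7 and Mavs gave no value with a minimum mean of 50. The count over all rows, 196, was 124 without the mean-variance trend and 114 to 562 with 1 library left out (562 without KO3, 114 without KO2, 124 without WT1, 127 without WT3). The 6 calls among related genes were 3 without the trend and 3 to 13 with 1 library left out (13 without KO3, 3 without KO1 or KO2). The cause was not tested. Without scaling to length, 7 of the 9 genes kept their rank, Zbp1 and Tbk1 changing places, since the scaling alone differs. The replicate numbers are not stated to pair libraries: deviations from the group means correlated at -0.31, 0.26 and 0.36 for numbers 1, 2 and 3, and KO1 was most like WT2. With the replicate block, 175 rows, 0 of the 9 genes and 4 related genes were called, Rnf135 and Insig1 not among them. The rows of Mavs, Irf7 and Adar rest on few reads, 8 to 56 a library, and the cause was not tested.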
